A study of Mus musculus with 6 samples.

Results

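The genes described here encode BTB-domain proteins of the KLHL, KBTBD, KCTD, BTBD and SPOP families, the groups from which the substrate adaptors of the ubiquitin ligase CRL3 are drawn. They were taken by symbol: every gene whose symbol begins with Klhl, Kbtbd, Kctd or Btbd followed by a digit, plus Keap1, Spop and Spopl, with a mean of at least 10 normalized counts over the 6 libraries. The symbol rule found 67 genes among the 18288 in the deposited data, and 58 of them reached the mean. These were 24 of 27 KLHL genes with Keap1 counted among them, 7 of 8 KBTBD genes, 16 of 19 KCTD genes, 9 of 11 BTBD genes, and both SPOP genes. Nearest the limit, Klhl35 was kept at a mean of 10.7 and Kctd21 was left out at 9.62. Membership rests on the symbol, and not every member has been shown to bind CUL3.

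The libraries were made from mouse CD8+ T cells that had been activated in culture and were collected on day 2, 3 from Nae1T-KO mice and 3 from Nae1WT mice. Nae1 encodes a subunit of the enzyme that activates NEDD8, a ubiquitin-like protein. The Cre driver of the deletion, the meaning of the T in the label, and the strain, age and sex of the mice were not given in the sources used here. The labels call the libraries biological replicates without saying whether each came from a separate mouse. Both genotypes held libraries of both sexes, read from Xist and Y-linked genes, so neither group came from a single mouse. Libraries of the same sex within a genotype may still share a mouse. Each p-value sets the difference between the genotypes against the spread of these samples, which may be partly technical.

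CRL3 is built on the scaffold CUL3, whose far end holds the RING protein RBX1. A BTB domain docks an adaptor onto CUL3, and a second domain of the same protein, such as a Kelch propeller or a MATH domain, holds the substrate, so the adaptor present decides which protein is ubiquitylated. The ligase is switched on when NEDD8 is attached to CUL3, a step that begins with the NAE1 and UBA3 enzyme and is undone by the COP9 signalosome. Some adaptors are themselves ubiquitylated and degraded through CUL3 when no substrate is bound. These properties belong to proteins, whereas the values here are amounts of messenger RNA.

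Nae1 was checked first and was lower in every Nae1T-KO library. It had 390.3, 338 and 367 normalized counts in Nae1T-KO cells, against 1601, 1806 and 1882 in Nae1WT cells, a log2 fold change of -2.27 (standard error 0.09, limma, adjusted p = 5.03e-07). A normalized count is the number of reads assigned to a gene divided by a size factor for its library. The deleted part of Nae1 is not named in the labels, and counts per gene cannot place the remaining reads on its exons. Reads assigned to genes were 16994995, 20849511 and 18967391 in Nae1T-KO cells, against 15628252, 18991950 and 25444653 in Nae1WT cells, and the 58 adaptor genes had 7 to 2878 reads each per library.

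In bulk RNA a lower level of a gene can come from fewer cells of a type or from less RNA per cell, and these cannot be told apart. The 7 measured CD8 T cell identity genes summed to 26986 to 29164 normalized counts in Nae1T-KO, against 29434 to 31517 in Nae1WT, lower in every Nae1T-KO library, with Cd3g called lower and Zap70 called higher. Sums of other markers were 772 to 1427 in Nae1T-KO against 491 to 876 in Nae1WT for 8 CD4 T cell genes, 118 to 152 against 34.5 to 72.4 for 8 of 14 myeloid and dendritic genes, 220.1 to 2096 against 187 to 687 for 7 of 8 erythroid genes, and 3129 to 3725 against 5222 to 5621 for 5 of 7 gamma-delta T and NK cell genes. The myeloid sum, in which Xcr1 was called higher and Itgam, Cd14, Flt3 and Itgax were at 0 in at least 1 library, and the gamma-delta T and NK sum, in which Eomes and Nkg7 were called lower, did not overlap between the genotypes either. Activated CD8+ T cells also express Eomes and Nkg7. The largest parts of the CD4 T cell sum were Il13 (mean 422 in Nae1T-KO, 149 in Nae1WT) and Gata3 (347 and 282). Cd4 itself had means of 70.3 and 60.9 with overlapping groups. Of the 8 CD4 T cell genes 0 were called, but all 8 had positive log2 fold changes (median 0.58). In 3 of them (37.5%, against 16.7% of all tested genes) every Nae1T-KO library was higher. The erythroid sum was highest in Nae1T-KO replicate 2, and Slc4a1 was at 0 in at least 1 library. The part of other cells in the adaptor differences was not tested.

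Most adaptor transcripts did not pass the test between the genotypes. Of the 58 genes, 5 rose in Nae1T-KO, namely Klhl23, Klhl15, Klhl5, Keap1 and Kctd20, and 1 fell, Kbtbd8. Over all 13819 genes tested, 12.7% were called (6.53% higher and 6.18% lower in Nae1T-KO), and the share among the adaptor genes was 10.3%, close to that background. Called means a Benjamini-Hochberg adjusted p under 0.05 from limma on log2(normalized count + 1), adjusted over all tested genes. All 58 passed the filter on low values. The median log2 fold change was 0.04 over the adaptor genes and -0.01 over all tested genes, and the median size of the change regardless of direction was 0.17 and 0.19. Between the lowest value, -0.61 for Kctd7, and the highest, 1.28 for Kctd14, neither of which was called, 34 genes had positive and 24 had negative values. The number that rose was 2 on leaving out any one of replicates 1 and 2 of Nae1T-KO and replicate 2 of Nae1WT, and 9 without Nae1T-KO replicate 3, where Kctd10, Kctd12, Kctd13 and Kctd14 were added. The number that fell was 2 without Nae1T-KO replicate 1, where Btbd1 was added, and 0 without Nae1WT replicate 2, where limma put Kbtbd8 just outside the threshold. Calls over all tested genes moved too, from 1757 with every library to 1295, 1034 and 1790 without Nae1T-KO replicates 1, 2 and 3 in turn. Without Nae1WT replicate 2 they were 844.

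**Figure D1:**
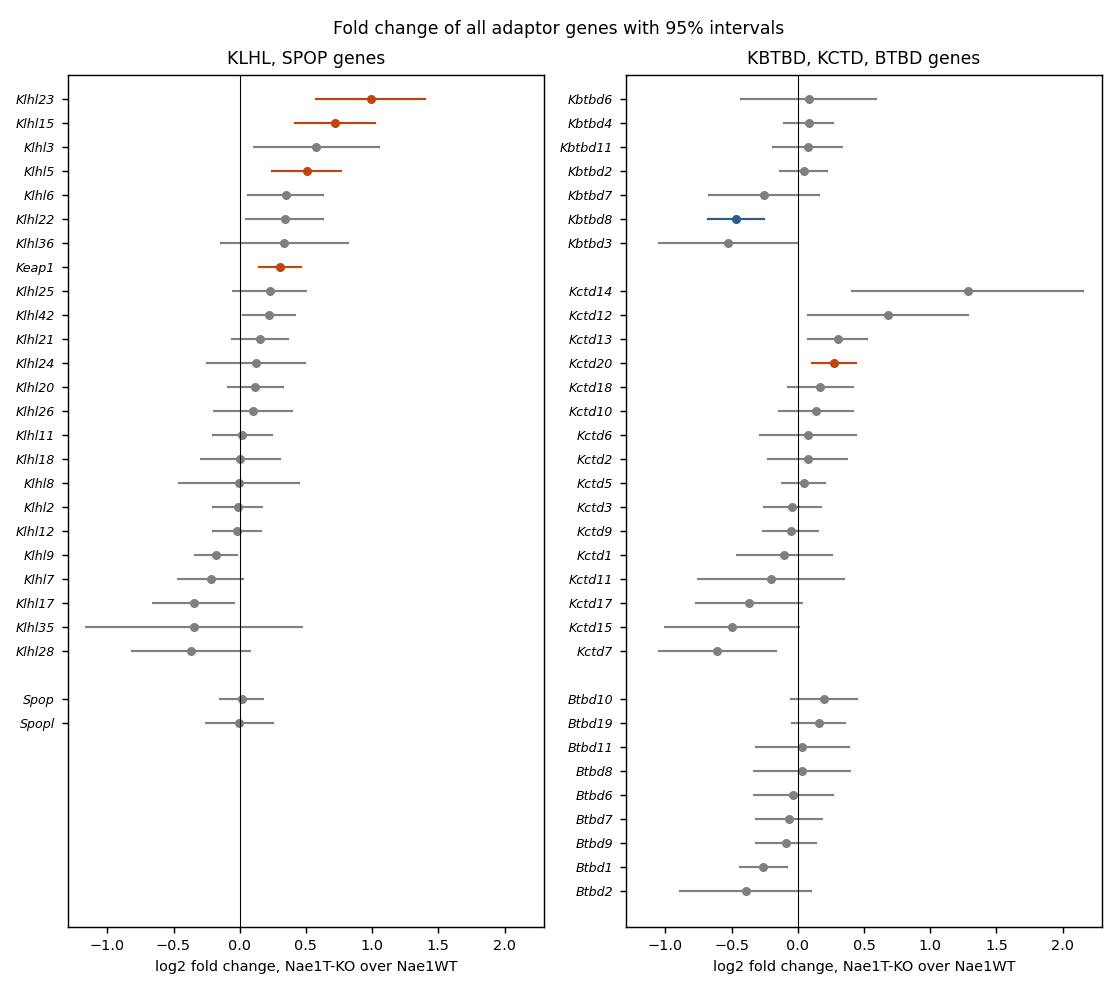
Log2 fold change of Nae1T-KO over Nae1WT with its 95% interval for each of the 58 adaptor genes, arranged by family. Orange-red points mark the 5 genes called higher, the blue point marks Kbtbd8, called lower, and grey points did not pass; most intervals cross 0, and 31 of the 58 estimates lie within 0.2 of it.

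Klhl23, a Kelch-like family member, had the largest change among the called genes. Its normalized count was 107, 115 and 92.9 in Nae1T-KO cells, against 50.3, 60.6 and 46.4 in Nae1WT cells. Every Nae1T-KO library stood above every Nae1WT library, with a clear gap between the groups. The means were 105 ± 11.0 in Nae1T-KO and 52.5 ± 7.33 in Nae1WT (SD, n = 3 each), a log2 fold change of 0.99 (95% interval 0.58 to 1.40, limma, adjusted p = 0.00797), or 1.99-fold. It was the least abundant of the 6 called genes, at 16.0 normalized counts per kilobase of exon. The gene lies on chromosome 2 from 69821944 to 69836651 on the plus strand in GRCm38 (mm10).

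Klhl15 encodes an adaptor described in human cells for the phosphatase regulatory subunit PPP2R5B and for the DNA end resection factor CtIP, the product of Rbbp8. Its normalized count was 306, 346 and 403 in Nae1T-KO cells, against 215, 237 and 186 in Nae1WT cells, with no overlap. The means were 352 ± 48.5 in Nae1T-KO and 213 ± 25.8 in Nae1WT (SD, n = 3 each), a log2 fold change of 0.72 (95% interval 0.42 to 1.02, limma, adjusted p = 0.008). Klhl15 is X-linked, from 94234599 to 94277724 on the plus strand of chromosome X. Of the 6 libraries, 3 held Xist (replicates 1 and 2 of Nae1T-KO, replicate 3 of Nae1WT) and the other 3 held Y-linked transcripts, so both genotypes held both sexes. Over the 4 pairs of libraries of the same sex the Klhl15 difference ran from 0.72 to 0.90 on the log2 scale, all higher in Nae1T-KO. The same pairs gave 0.61 to 1.28 for Klhl23, 0.33 to 0.64 for Klhl5, 0.21 to 0.40 for Keap1, 0.13 to 0.35 for Kctd20 and -0.61 to -0.32 for Kbtbd8. In every called gene the genotype groups did not overlap, so no pair could differ in direction. The sign of these pairs therefore does not test the part of sex. Both Klhl23 and Klhl15 stayed called whichever single library was left out and with sex as a term.

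Klhl5 had 485, 434 and 419 normalized counts in Nae1T-KO cells, against 332, 269 and 346 in Nae1WT cells. The groups did not overlap. Its log2 fold change was 0.50 (95% interval 0.24 to 0.77, limma, adjusted p = 0.021). The call was lost without Nae1T-KO replicate 1 (adjusted p = 0.0676), Nae1T-KO replicate 2 (0.0514) or Nae1WT replicate 2 (0.0773). Klhl5 lies on chromosome 5 from 65107539 to 65168188 on the plus strand, and its span overlaps another measured gene, LOC115490189, whose reads may be shared with it.

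Keap1 encodes the adaptor that presents the transcription factor NRF2 to CUL3, an activity that oxidative or electrophilic stress lowers. It had 1684, 1682 and 1682 normalized counts in Nae1T-KO cells, against 1376, 1273 and 1450.4 in Nae1WT cells. The Nae1T-KO values had an SD of 1.18, smaller than their counting error of 38.5 to 43.4 normalized counts per library, and the Nae1WT values had an SD of 89.0. The log2 fold change was 0.30 (95% interval 0.14 to 0.46, limma, adjusted p = 0.021), a level 1.23-fold higher in Nae1T-KO. The call was lost without Nae1T-KO replicate 1 (adjusted p = 0.0551), Nae1T-KO replicate 2 (0.0556) or Nae1WT replicate 2 (0.0986). Keap1 lies on chromosome 9 from 21229730 to 21239361 on the minus strand. Nfe2l2, which encodes NRF2, had 711, 734 and 726 normalized counts in Nae1T-KO cells, against 664, 633 and 611 in Nae1WT cells. Its log2 fold change of 0.19 was not called (limma, adjusted p = 0.139).

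Kctd20, described as a positive regulator of the kinase AKT, had the highest adjusted p among the called genes. It had 1344, 1347 and 1188 normalized counts in Nae1T-KO cells, against 1083, 1066 and 1053 in Nae1WT cells, so that Nae1T-KO replicate 3 stood nearest the Nae1WT values. The log2 fold change was 0.27 (95% interval 0.11 to 0.44, limma, adjusted p = 0.0381). The call was lost on leaving out any library other than Nae1T-KO replicate 3, and with sex as a term (adjusted p = 0.0736). The gene lies on chromosome 17 from 28951950 to 28969549 on the plus strand.

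Kbtbd8 was the only adaptor gene called lower in Nae1T-KO. Its product is described as the adaptor through which CUL3 monoubiquitylates the nucleolar proteins TCOF1 and NOLC1, known from human cells and Xenopus. Its normalized count was 542, 461 and 558 in Nae1T-KO cells, against 696, 749.5 and 704 in Nae1WT cells, with every Nae1T-KO library below every Nae1WT library. The means were 521 ± 52.3 in Nae1T-KO and 717 ± 28.7 in Nae1WT (SD, n = 3 each), a log2 fold change of -0.46 (95% interval -0.67 to -0.25, limma, adjusted p = 0.0114). Without Nae1WT replicate 2 the adjusted p was 0.0515. Kbtbd8 lies on chromosome 6 from 95117240 to 95129790 on the plus strand. Of its described substrates, Tcof1 rose, with 6749, 6802 and 6928 normalized counts in Nae1T-KO cells, against 5862, 5629 and 5757 in Nae1WT cells (log2 fold change 0.25, limma, adjusted p = 0.0238). Nolc1 did not pass and its log2 fold change was -0.02 with a 95% interval of -0.17 to 0.13.

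**Figure D2:**
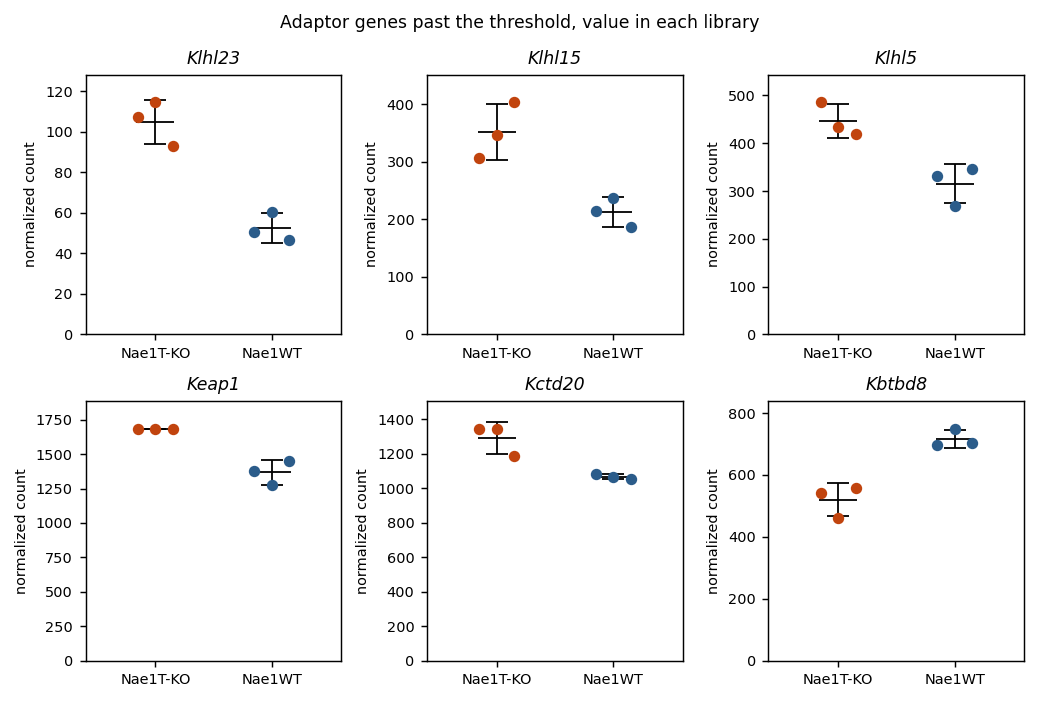
Normalized counts of the 6 called adaptor genes in each library, 1 panel per gene, with Nae1T-KO libraries in orange-red at the left and Nae1WT libraries in blue at the right; horizontal lines are group means and whiskers are SDs (n = 3). In each panel the points of the 2 groups do not overlap, with Klhl23 the most widely separated in fold and Kbtbd8 the one panel where Nae1T-KO is lower.

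The 4 genes that rose within the KLHL family are shown with the bases before their annotated start, because they moved in the same direction and belong to the same family, so that what their upstream sequences share can be seen. The stretches are RefSeq promoter sequences of GRCm38.p6, trimmed to bases outside GENCODE exons, written 5′ to 3′ on the gene's strand, and they lie at chr2:69821691-69821940 (plus strand) for Klhl23, chrX:94234680-94234926 (plus) for Klhl15, chr5:65107318-65107538 (plus) for Klhl5 and chr9:21239362-21239582 (minus) for Keap1. The Klhl15 stretch lies inside the gene's annotated span. Klhl23 and Klhl5 also have other annotated starts that are not shown. Capitals mark every match to 6 motifs searched on both strands.
Klhl23: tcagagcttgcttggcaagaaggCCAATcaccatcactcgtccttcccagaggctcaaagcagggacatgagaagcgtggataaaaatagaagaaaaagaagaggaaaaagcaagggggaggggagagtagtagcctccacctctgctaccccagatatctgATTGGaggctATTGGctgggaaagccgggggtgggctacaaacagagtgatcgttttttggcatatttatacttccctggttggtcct
Klhl15: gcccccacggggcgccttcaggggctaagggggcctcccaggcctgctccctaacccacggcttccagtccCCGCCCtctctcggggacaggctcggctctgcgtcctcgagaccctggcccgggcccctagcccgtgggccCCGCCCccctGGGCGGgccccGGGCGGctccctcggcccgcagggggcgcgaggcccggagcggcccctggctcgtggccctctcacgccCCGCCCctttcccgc
Klhl5: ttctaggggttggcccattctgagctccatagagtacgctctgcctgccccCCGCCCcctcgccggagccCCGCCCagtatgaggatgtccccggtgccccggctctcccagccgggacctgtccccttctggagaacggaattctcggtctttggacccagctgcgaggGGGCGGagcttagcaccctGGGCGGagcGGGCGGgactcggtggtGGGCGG
Keap1: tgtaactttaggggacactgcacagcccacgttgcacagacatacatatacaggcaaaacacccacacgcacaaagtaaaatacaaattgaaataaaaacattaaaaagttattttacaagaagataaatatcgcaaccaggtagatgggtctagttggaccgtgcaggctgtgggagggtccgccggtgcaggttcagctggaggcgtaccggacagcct
The motifs were the antioxidant response element core TGACNNNGC, which NRF2 binds, the GC box GGGCGG, the CCAAT box CCAAT, the ETS core CCGGAAG, the E-box CACGTG and the cAMP response element TGACGTCA. The antioxidant core overlaps the cAMP response element in its first 4 letters. The capitals are 3 CCAAT boxes in Klhl23, 5 GC boxes in Klhl15 and 6 GC boxes in Klhl5, and the Keap1 stretch held no match. The printed stretches share no motif of the 6 across all 4 genes, which depends on the trimming to bases outside exons. Over the 250 bases before each annotated start, each of the 4 genes had a GC box before at least 1 start, in Klhl23 before a start that is not shown and in Keap1 in the bases trimmed away. In the same windows a GC box was found in 73.0% of the 63 promoters annotated for 46 of the adaptor genes, in 55.0% of the promoters of tested genes and in 32.7% of all 32851 promoters. CCAAT was found in 25.4% of adaptor promoters, 35.4% of those of tested genes and 33.8% of all promoters. For the antioxidant core the shares were 19.0%, 11.7% and 10.2%, and it matched in 10 adaptor genes, Btbd2, Btbd6, Btbd8, Kbtbd3, Kctd6, Kctd10, Kctd12, Klhl12, Klhl17 and Klhl28. None of the 10 was called, beside 12.7% of all tested genes, a share at which few of 10 genes would be called. The ETS core was found in 17.5%, 13.5% and 6.9%, the E-box in 9.5%, 8.2% and 6.0%, and the cAMP response element in 1.6%, 2.6% and 1.5%. A match is a run of letters and does not show that a factor binds there.

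A further 12 adaptor genes had an unadjusted p under 0.05 without passing adjustment, which made 18 of the 58 (all tested genes 29.1%). Kctd14 had the largest fold of all members. Its normalized count was 50.3, 40.5 and 24.2 in Nae1T-KO cells, against 8.59, 22.0 and 16.0 in Nae1WT cells, a log2 fold change of 1.28 (95% interval 0.41 to 2.15, limma, adjusted p = 0.0576). The Nae1T-KO replicate 3 value lay just above the highest Nae1WT value. Kctd12, an auxiliary subunit of GABA-B receptors in neurons, had 161, 153 and 84.8 in Nae1T-KO cells, against 76.1, 62.7 and 105 in Nae1WT cells, and the groups overlapped (log2 fold change 0.68, limma, adjusted p = 0.128). Kctd7, mutated in a human progressive myoclonic epilepsy, had 45.9, 57.3 and 41.4 in Nae1T-KO cells, against 77.4, 74.2 and 68.5 in Nae1WT cells, with all Nae1T-KO values below (log2 fold change -0.61, limma, adjusted p = 0.0725). Kctd13, an adaptor described for the GTPase RhoA, had 425, 441 and 377 in Nae1T-KO cells, against 332, 323 and 353 in Nae1WT cells, with all Nae1T-KO values above (log2 fold change 0.30, limma, adjusted p = 0.0749).

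The KLHL genes in this middle range were Klhl3, Klhl6, Klhl22, Klhl17, Klhl9 and Klhl42. Klhl3, whose product targets WNK kinases in the kidney, had 66.0, 63.5 and 65.6 normalized counts in Nae1T-KO cells, against 44.2, 52.3 and 35.0 in Nae1WT cells (log2 fold change 0.58, limma, adjusted p = 0.102). Klhl22, described for the mitotic kinase PLK1, the mTORC1 pathway component DEPDC5 and the receptor PD-1, had 295, 234 and 279 in Nae1T-KO cells, against 231, 189 and 216 in Nae1WT cells (0.34, adjusted p = 0.116). Their groups did not overlap, although Klhl22 came close, with the lowest Nae1T-KO value just above the highest Nae1WT value. Klhl42, described for the microtubule-severing enzyme katanin, had a log2 fold change of 0.22 (adjusted p = 0.133), Klhl17 one of -0.35 (0.127) and Klhl9, described with KLHL13 for Aurora B in mitosis, one of -0.18 (0.131). In these 3 genes, too, no library of one group fell within the range of the other. Klhl17 overlaps the measured gene Noc2l, so its reads may be shared.

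Klhl6 is best known from B cells, where it is needed for germinal centre formation and presents Roquin2 to CUL3. Its normalized count was 578, 715 and 701 in Nae1T-KO cells, against 598, 541 and 435 in Nae1WT cells, and Nae1T-KO replicate 1 lay within the Nae1WT range (log2 fold change 0.35, limma, adjusted p = 0.105). With sex as a term it passed (adjusted p = 0.0398). The summed level of 9 measured B cell markers was 310, 783 and 347 in Nae1T-KO cells, against 275, 273 and 444 in Nae1WT cells. Both this sum and Klhl6 were highest in Nae1T-KO replicate 2, whereas Nae1WT replicate 3 had the next highest sum and the lowest Klhl6. Blnk and Ebf1 were at 0 in at least 1 library, and the part of these markers in the Klhl6 values was not tested.

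Outside the KLHL family, Btbd1 and Kbtbd3 were the remaining genes of this kind. Btbd1, whose product binds topoisomerase I, was abundant, with 1834, 1555 and 1674 normalized counts in Nae1T-KO cells, against 1899, 2081 and 2072 in Nae1WT cells. All Nae1T-KO values lay below, the highest of them close to the lowest Nae1WT value (log2 fold change -0.26, limma, adjusted p = 0.0564). Kbtbd3 had 49.2, 35.3 and 60.6 in Nae1T-KO cells, against 63.8, 64.8 and 77.7 in Nae1WT cells (-0.53, adjusted p = 0.167). Counting all members, the 3 libraries of one genotype lay wholly above those of the other in 18 of the 58 genes (31.0%), 11 higher and 7 lower in Nae1T-KO, against 33.7% of all tested genes (16.7% higher and 17.0% lower).

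By family, 4 of 24 KLHL genes were called, all higher, with a median log2 fold change of 0.12 over the family. Their share of 16.7% was all in the higher direction, where 6.53% of all tested genes were called, against 12.7% in either direction. It rests on 4 genes. Of the 7 KBTBD genes 1 was called (median 0.04), of the 16 KCTD genes 1 (median 0.06), and of the 9 BTBD genes 0 (median -0.03), where limma gave an unadjusted p under 0.05 to 1 gene, Btbd1. On recovered reads edgeR called 0 BTBD genes and DESeq2 called 1, again Btbd1. Neither SPOP gene was called by limma, edgeR or DESeq2 or had an unadjusted p under 0.05. No difference between the families was tested.

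Several adaptors with well-studied substrates in immune and dividing cells did not pass the test. Spop, which presents DAXX, the BRD proteins and PD-L1, had 2257, 2069 and 1984 normalized counts in Nae1T-KO cells, against 2033, 2015 and 2191 in Nae1WT cells, a log2 fold change of 0.02 (95% interval -0.15 to 0.18). Its paralog Spopl had 344, 352 and 369.6 in Nae1T-KO cells, against 319, 342 and 412 in Nae1WT cells, and its interval ran from -0.25 to 0.25. In both genes the ranges of the genotypes overlapped. Klhl20, described for the death-associated kinase DAPK1 and for PML, had a log2 fold change of 0.12 with an interval of -0.09 to 0.33. Kbtbd2, described for the p85α subunit of PI3 kinase, had 0.04 with an interval of -0.13 to 0.22, and Kctd5, described for G protein βγ subunits, had 0.04 with -0.12 to 0.21. Klhl25, described for the translation repressor 4E-BP1 and for ATP-citrate lyase, had 375, 323 and 306 in Nae1T-KO cells, against 254, 281 and 323 in Nae1WT cells, and its interval was -0.05 to 0.50. For 35 of the 58 genes the interval lay inside -0.5 to 0.5. These intervals bound a change without showing that there was none.

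Adaptor messages differed far more between genes than between genotypes. Per kilobase of GENCODE exon, averaged over the 6 libraries, Spop was the most abundant at 662 normalized counts, followed by Btbd1 at 534, Klhl9 at 391 and Keap1 at 325, and Klhl35 was the least at 4.16. The median over the 57 members with an annotated length was 53.2. Length is the union of a gene's annotated exons, so a gene whose cells use a short isoform is understated. Family medians were 53.2 for KLHL, 121 for KBTBD, 54.3 for KCTD and 45.8 for BTBD genes, while the 2 SPOP genes stood at 662 and 34.7. After Klhl9 and Keap1 the most abundant KLHL genes per kilobase were Klhl11 (229.8), Klhl6 (228) and Klhl21 (151), the last described for Aurora B. The KBTBD genes were led by Kbtbd2 (208), Kbtbd4 (207), which is described for the CoREST complex, Kbtbd11 (191), Kbtbd8 (121) and Kbtbd6 (26.0), which acts on TIAM1. Among KCTD genes Kctd10 (245), a relative of Kctd13, and Kctd5 (235) came before Kctd13 and Kctd20 (151 each) and Kctd9 (92.6). Among BTBD genes Btbd1 was followed by Btbd19 (117), Btbd6 (102), Btbd10 (62.9) and Btbd7 (45.8). Of these 22 genes 3 were called, Keap1, Kctd20 and Kbtbd8, a share near the 12.7% of all tested genes.

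**Figure D3:**
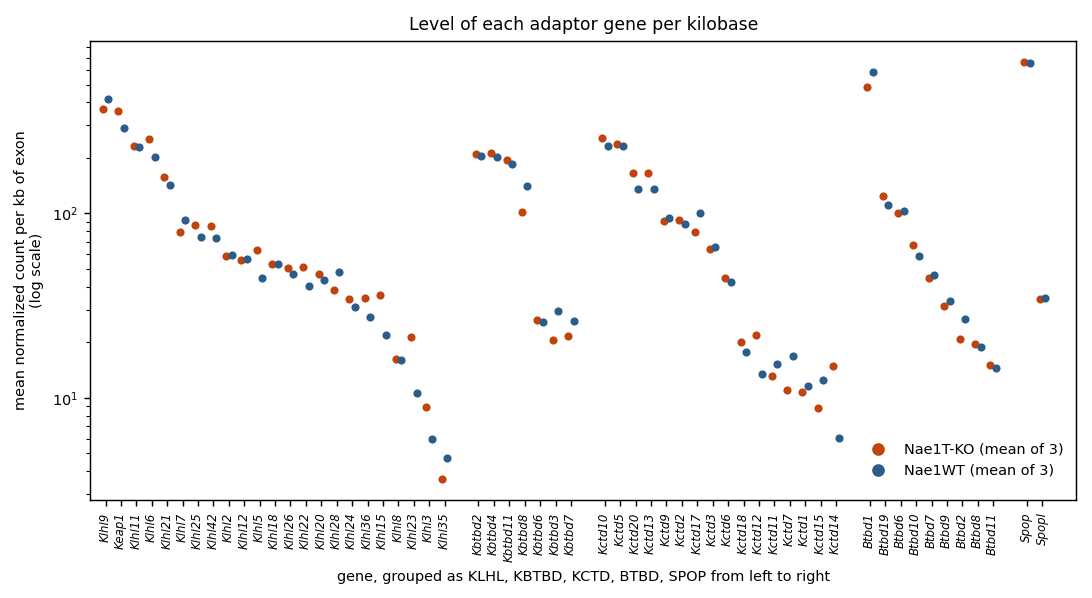
Mean normalized count per kilobase of exon on a log axis for the members with an annotated length, arranged by family, with Nae1T-KO in orange-red and Nae1WT in blue. The points of the 2 genotypes lie close together for most genes, while the genes range from 4.16 for Klhl35 to 662 for Spop as means over the 6 libraries.

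The less abundant genes had the larger estimated changes. The median coefficient of variation between replicates was 10.3% in Nae1T-KO and 7.75% in Nae1WT. The median size of the log2 fold change was 0.12 in the more abundant 29 genes by mean normalized count and 0.34 in the less abundant 29, and 13 genes had a mean below 100. Kctd14, Klhl35 and Klhl23, the called gene with the largest change (mean 78.7), were among those 13.

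The wider CUL3 pathway was read from 3 lists, chosen with earlier results of these data known. Their shares of called genes are therefore not independent of the data and are given as description only. In the list of CRL3 core and NEDD8 cycle genes, 6 of 25 (24.0%) were called, against 12.7% of all tested genes, and Nae1 itself is 1 of the 6. Cul3, the scaffold that all these adaptors would share, had 3358, 3189 and 3906 normalized counts in Nae1T-KO cells, against 2851, 2958 and 2901 in Nae1WT cells. Each Nae1T-KO value was above each Nae1WT value, yet it did not pass (log2 fold change 0.26, limma, adjusted p = 0.0615). It passed with sex as a term (adjusted p = 0.0369), with total-count scaling (0.0254), by DESeq2 on recovered reads (0.0347) and without Nae1T-KO replicate 2 (0.0461). Dcun1d3, a co-E3 that helps place NEDD8 on cullins, rose with a log2 fold change of 1.15 (353, 329 and 295 in Nae1T-KO, against 141, 144 and 152 in Nae1WT). Ube2m, the E2 that carries NEDD8 to CUL3, rose by 0.25. The COP9 signalosome subunits Cops2 and Cops3 fell, by 0.45 and 0.48, and the co-E3 Dcun1d1 fell by 0.24 on the log2 scale. Nae1, Dcun1d3 and Cops3 stayed called whichever single library was left out, whereas Cops2 was lost without Nae1T-KO replicate 2, Nae1WT replicate 2 or Nae1WT replicate 3 (adjusted p 0.0522 to 0.0659). Ube2m was lost without any library other than Nae1T-KO replicate 2 (adjusted p 0.0819 to 0.142), and Dcun1d1 without any other than Nae1WT replicate 1 (0.0666 to 0.192). With sex as a term both lost their call (adjusted p = 0.0758 for Ube2m and 0.0727 for Dcun1d1). The median over the list was -0.04, beside -0.01 over all tested genes.

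Of 21 listed BTB proteins whose symbols lie outside the rule, 17 were tested and 3 were called (17.6%, against 12.7% of all tested genes). Enc1, a Kelch-like protein by structure, had 709, 849.5 and 777 normalized counts in Nae1T-KO cells, against 345, 303 and 306 in Nae1WT cells. Its log2 fold change was 1.29 (limma, adjusted p = 0.000105). This was about equal to the highest among the 58 adaptor genes, 1.28 for Kctd14, which had a standard error of 0.39 and was not called. Ivns1abp, a Kelch protein that binds influenza NS1, and Rcbtb2 fell, by 0.29 and 0.41 on the log2 scale. Enc1 stayed called whichever library was left out, Ivns1abp was lost without Nae1WT replicate 2 (adjusted p = 0.0516) or Nae1WT replicate 3 (0.0792), and Rcbtb2 was lost without any library other than Nae1T-KO replicate 3 (0.0653 to 0.0981) and with sex as a term (0.0603). The median over the tested genes of this list was 0.17.

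A list of 44 genes whose proteins are described as substrates of these adaptors, mostly from human cells, had 41 tested members, of which 8 rose and 1 fell (22.0% called, against 12.7% of all tested genes, 6.53% higher and 6.18% lower). Those that rose were Dapk1 (log2 fold change 0.74) and Pml (0.59), described for KLHL20, Cd274 (0.48), which encodes PD-L1, and Daxx (0.29), described for SPOP, Sqstm1 (0.46) for KEAP1, Plk1 (0.34) for KLHL22, Katna1 (0.33) for KLHL42, and Tcof1. For 6 of these 8, Dapk1, Pml, Cd274, Daxx, Plk1 and Katna1, the adaptor's own transcript did not pass the test. Rbbp8 fell, with 1128, 953 and 1112 normalized counts in Nae1T-KO cells, against 1356, 1426 and 1418 in Nae1WT cells (log2 fold change -0.40, limma, adjusted p = 0.0117), while Klhl15, its described adaptor, rose. Ppp2r5b, the other gene listed for KLHL15, had a log2 fold change of -0.23 and did not pass. Pml, Cd274, Sqstm1 and Rbbp8 stayed called whichever single library was left out. Dapk1 was lost on leaving out any one of replicates 1 and 2 of Nae1T-KO and replicate 3 of Nae1WT (adjusted p 0.0505 to 0.0672), Plk1 without Nae1T-KO replicate 1 or Nae1WT replicate 2 (0.0518 and 0.0569), and Daxx without Nae1T-KO replicate 2, Nae1WT replicate 2 or Nae1WT replicate 3 (0.0845 to 0.105). Tcof1 was lost without any library other than Nae1T-KO replicate 3 or Nae1WT replicate 1 (0.0557 to 0.108), and Katna1 without any other than Nae1T-KO replicate 1 (0.0562 to 0.14). The median over the tested substrates was 0.14. An adaptor acts on its substrate's protein, so these transcript values do not measure adaptor activity.

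**Figure D4:**
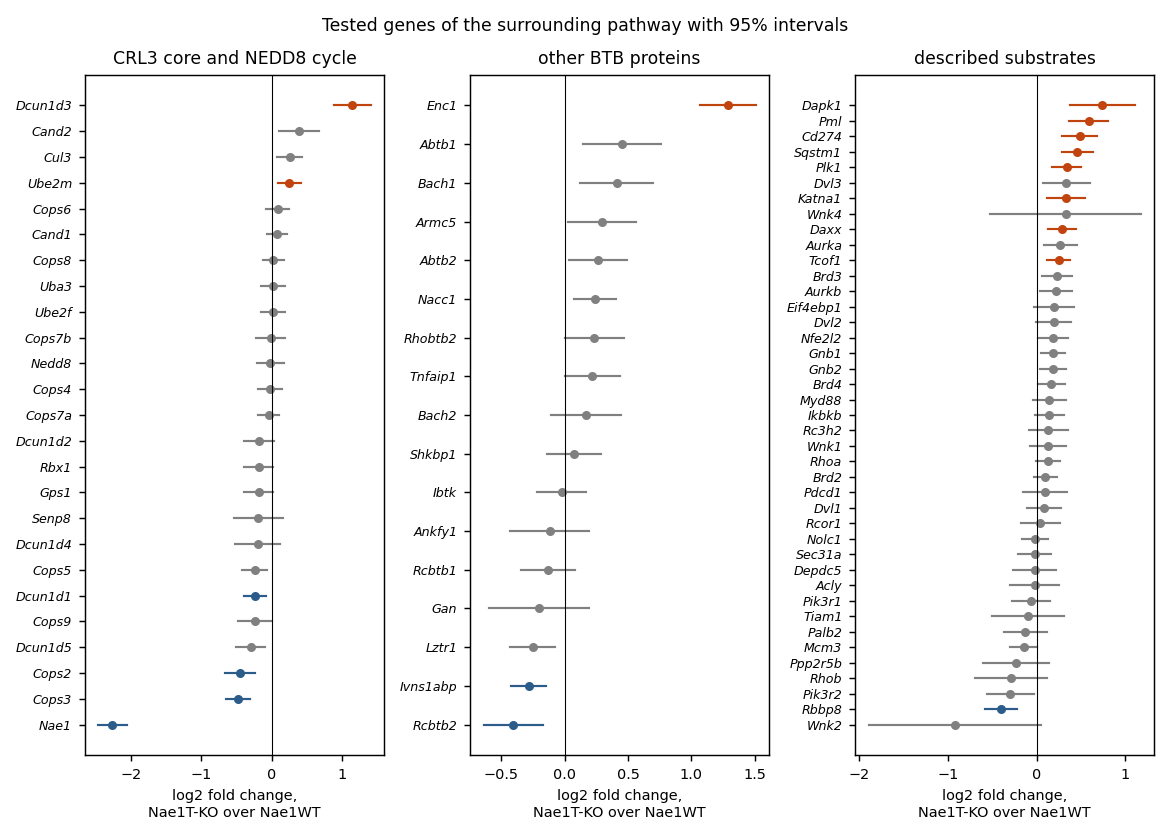
Log2 fold change of Nae1T-KO over Nae1WT for the tested genes of the CRL3 core and NEDD8 cycle list, the other BTB proteins and the described substrates, with orange-red points called higher, blue points called lower and grey points not passing. Nae1 at -2.27 is the lowest point, and Enc1 at 1.29 and Dcun1d3 at 1.15 are the highest.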

How the data were processed

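RNA was measured in 6 libraries of activated mouse CD8+ T cells, 3 Nae1T-KO and 3 Nae1WT, grouped by their titles. Per the labels' protocols, RNA came from frozen cell pellets and was captured by poly-T beads before random-hexamer cDNA synthesis. Per the submitters' processing notes, bcl2fastq, HISAT2, DESeq2 1.42.0 and build mm10 were involved. The read counter, annotation, strand setting and treatment of reads matching several genes were not given in the sources used here, and 16 of the 58 genes overlap another measured gene by RefSeq span.

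The authors deposited normalized counts, a never-negative signal of 18288 genes by 6 libraries. Every deposited value was a whole multiple of a library's step within 0.001 of a read (100% of values), and the steps matched DESeq2 size factors, so reads could be recovered. For Nae1T-KO replicate 3, whose step is near 1, this is less certain. No gene had fewer than 11 reads over the 6 libraries.

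Genes with a normalized count of at least 10 in at least 3 libraries (13819) entered a limma fit (version 3.58.1, R 4.3.3) to log2(normalized count + 1) (trend, robust, two-sided), for genotype alone, with Benjamini-Hochberg adjustment over all tested genes and calls at 0.05. The pseudocount makes fold changes of low genes too small. Confidence intervals are 95% intervals from the same fit. The fits were run on simulated data with 200 changed genes. Changes as small as the 1.23-fold of Keap1 were not simulated, so that run does not show how well such changes are found. Exon lengths and gene coordinates came from GENCODE vM21 (GRCm38). Alternatives were other scalings, filters and pseudocounts, leaving out each library, replicate blocks, a term for sex read from Xist and Y-linked genes, edgeR 4.0.16 and DESeq2 on recovered reads, and an adjusted p under 0.01.

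The members and lists were chosen with earlier results of these data known. Genes were named by rule: all called members and called list genes, uncalled members with an unadjusted p under 0.05, 10 set adaptors (Keap1, Spop, Spopl, Klhl6, Klhl20, Klhl22, Klhl25, Kbtbd2, Kctd5, Kctd13), the 5 most abundant per kilobase in each family, the pair nearest the limit, and Nae1 and Cul3. Nfe2l2, Nolc1 and Ppp2r5b, and the genes listed for the antioxidant core, were named after their values were seen. A marker gene was left out of its list and is not reported here.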

Additional observations from a re-analysis of the deposited data

How the results depend on the processing

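Under 19 alternatives, the crossed replicate block below not among them, 21 of the 55 named genes kept their direction and their side of the threshold. Of 1037 values of named genes under alternatives, 900 kept both, 104 kept their direction but lost the call, 12 gained one and 21 changed sign. Other scalings, no filter, other pseudocounts and edgeR on recovered reads called the same 6 adaptor genes. The stricter filter, a normalized count of at least 100, tested 45 adaptor genes and not Klhl23, and called the other 5. DESeq2 on recovered reads called 6 higher and 2 lower, adding Kctd14 and Btbd1, and 5 other BTB genes, beside 2047 of all genes. At an adjusted p under 0.01, 2 adaptor genes were higher, 0 lower, and 3 core genes, 1 other BTB gene and 3 substrates were called, beside 585 of all tested genes. There limma gave no call to Kbtbd8, whose adjusted p was 0.0114. Leaving out 1 library at a time gave 2 to 9 adaptor genes higher, 0 to 2 lower, 3 to 6 core genes, 1 to 5 other BTB genes and 5 to 9 substrates. Over all tested genes those fits called 844 to 1790, against 1757 with every library.

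Deviations of same-numbered libraries correlated at -0.13, -0.18 and -0.27, and each of these pairs joined libraries of opposite sex. The 4 pairs of the same sex had correlations of 0.048 to 0.259. Number and sex are mixed in this check, so it cannot show whether the replicate numbers pair the samples. With a replicate block by title number, 3 adaptor genes were higher (Klhl23, Klhl15 and Klhl5) and Kbtbd8 lower, with 1 other BTB gene and 5 substrates. That block called 968 of all tested genes, against 1757 in the main fit. A replicate block by library number, possible with 4 libraries only, left limma with 0 adaptor genes higher and 0 lower, 2 core genes, 1 other BTB gene and 1 substrate. It joined libraries of opposite sex and called 253 of all tested genes. Crossing these library numbers in the replicate block, an alternative chosen after seeing the data and read as counts only, gave 6 adaptor genes higher and 3 lower, 5 other BTB genes and 15 substrates. The crossed block joined libraries of the same sex and called 2400 of all tested genes, so the counts moved across the whole data and not in the adaptor genes alone. 

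Changes of sign were limited to uncalled genes with small values. Btbd6 had 0.0138 with total-count scaling and 0.0365 with the block by library number, Klhl11 had -0.00748 with that block, Spop had -0.0244 with sex as a term, and Spopl had 0.0452 with total-count and 0.0112 with upper-quartile scaling. Leaving out 1 library at a time gave ranges of -0.155 to 0.0617 for Btbd6, -0.143 to 0.0714 for Btbd7, -0.0400 to 0.163 for Kbtbd11, -0.113 to 0.316 for Kbtbd6, -0.0488 to 0.0816 for Klhl11, -0.0367 to 0.0562 for Spop and -0.0795 to 0.104 for Spopl. Apart from the smaller number of libraries, the cause of these shifts was not tested. The scarcest adaptor gene had as few as 7 reads in a library, and the power to detect changes at such levels was not assessed.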
